A study of Mus musculus with 20 samples.

Results

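The matrix metallopeptidases (Mmp genes), the membrane-bound ADAM and the secreted ADAMTS peptidases, and the tissue inhibitors of metalloproteinases (Timp genes) were examined in the epididymal white adipose tissue (eWAT) of mice. The members were all genes whose mouse symbol begins with Mmp, Adam, Adamts or Timp followed by a digit, which gave 41 of the 14776 genes with values, namely 11 Mmp, 13 Adam, 13 Adamts and 4 Timp genes. The annotation held 79 genes with such symbols, and the rest, Adam7 and Adam28 among them, were not analysed here. The mice were male C57BL/6J animals without a transgene, 6 weeks old when feeding began. The labels name 6 samples as NC, 7 as HFD and 7 as SZ-A. By the study's methods, NC mice received maintenance feed and HFD mice high-fat chow, in which fat supplies 60% of energy. SZ-A mice had the same high-fat chow plus Ramulus Mori (Sangzhi) alkaloids prepared from mulberry twig. The high-fat diet ran for 14 weeks before treatment and went on for 6 more, 20 weeks in all. SZ-A was dosed intragastrically at 400 mg/kg daily in those last 6 weeks, when the HFD mice had saline. RNA was measured in whole fat pads, so fewer cells of a type and less RNA per cell cannot be told apart.

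As background, these enzymes hold a zinc ion in the active site and are made as inactive precursors. Mmp and ADAMTS enzymes cut collagens, elastin, proteoglycans and other matrix proteins, ADAM enzymes mostly release the outer parts of membrane proteins, and TIMP proteins bind the active site and block it. In growing fat, this set takes part in matrix turnover around expanding adipocytes and is made by macrophages, fibroblasts and adipocytes alike. Much of the control of these proteins comes after transcription, which transcript levels do not show.

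The values are FPKM, read counts scaled to exon length and to library size, so levels of different genes can be set side by side per length. Between 13567667 and 19388628 reads per mouse lay on the genes with values, and 12 of the 41 members had fewer than 10 reads in at least 1 mouse. The library labelled NC replicate 6 (NC 6) went against its tissue label. Its Adipoq level was 26.6 FPKM against at least 222 FPKM in each other mouse, its summed adipocyte markers (12 of 12 listed genes) were 422 FPKM against 6308 to 15587 FPKM in the other NC mice, and Adgrg2, a gene of the epididymal duct, stood at 420 FPKM. The total counts of called members against NC, and the HFD against NC results of named members, are therefore given with and without it. Other comparisons with NC include it unless stated. SZ-A replicate 2 also held epididymis markers (summed level of 3 genes 397 FPKM, against 2.42 to 5.01 FPKM in HFD mice), and SZ-A replicate 5 had 11.6% mitochondrial reads, against 1.67% to 2.92% in HFD mice. Among epithelial markers, 4 of 12 had values, and their sum was 17.6 to 866 FPKM in NC, 5.23 to 15.1 FPKM in HFD and 4.72 to 322 FPKM in SZ-A mice, the last in replicate 7. All macrophage markers listed (20 of 20) had values, with a sum of 96.8 to 929 FPKM in NC, 3772 to 9864 FPKM in HFD and 1532 to 5095 FPKM in SZ-A mice. Among the 14776 genes, 0 values in any mouse were at 0 FPKM, so genes without reads in some library may be missing.

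After high-fat feeding, more members rose than fell, with Mmp12, Adam8, Mmp19 and Timp1 in the lead. HFD was compared with NC by limma on log2(FPKM + 1), with Benjamini-Hochberg adjustment over all genes and a call at an adjusted p under 0.05. Of the 41 members tested, 20 were called higher, against 21.0% of all genes, and 2 were called lower, Adam11 and Mmp9, against 20.1% of all genes. The median log2 fold change of the members was 0.65, and that of all genes was -0.04. By family, 7 of 11 Mmp, 6 of 13 Adam, 5 of 13 Adamts and 2 of 4 Timp genes rose. With the limit used in the study's methods, a log2 fold change above 1.5 besides the adjusted p, 15 members were higher and 0 lower, against 7.97% of all genes in either direction. In 17 members no HFD mouse overlapped an NC mouse, against 20.5% of all genes. Without the library labelled NC 6, 22 members rose, against 22.6% of all genes in that fit, and 7 fell, also against 22.6%. All 20 first called higher were among the 22, Adam10 and Adamts12 were added to them, and Timp4, Mmp17, Adam33, Adamts8 and Adamts9 were added to those that fell. With the epididymis marker score as a covariate, 13 members were higher, against 16.7% of all genes in that fit, and 12 lower, against 16.1%. The rises of Timp2 (0.01, adjusted p = 0.969), Adamts2 (0.38, adjusted p = 0.0988), Mmp11 (0.46, adjusted p = 0.41), Adam9 (0.50, adjusted p = 0.0544) and Adamts7 (0.21, adjusted p = 0.47) were then no longer called. Adam22, Adamts5 and Mmp23 were not among those 13 either, while Adam10 was. That score is the mean log2 level of 3 of the 42 listed epididymis markers. Their sum was 30.3 to 2898 FPKM in NC (to 88.9 FPKM without the library labelled NC 6) and 2.42 to 5.01 FPKM in HFD mice. The 2 groups did not overlap in it, so diet and score cannot be told apart in this fit.

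In SZ-A-treated mice, the direction was mostly the opposite. Against HFD, 18 of 41 members were called lower, against 13.3% of all genes, and 3 were called higher (Timp4, Mmp9 and Adam11), against 9.47% of all genes. The median log2 fold change was -0.30 over the members and 0.03 over all genes. The 18 comprised 5 Mmp, 6 Adam, 5 Adamts and 2 Timp genes. A log2 fold change above 1.5 besides the adjusted p left 5 lower and 1 higher, against 0.864% of all genes in either direction. No mouse overlapped between the groups for 10 members, against 6.08% of all genes. Of these 10, Mmp9 and Timp4 were higher in SZ-A, and Adam12, Adam17, Adam19, Adamts2, Adamts12, Adamts15, Mmp2 and Timp2 were lower. In exact two-sided permutation tests, p lay between 0.000583, the smallest value that 7 against 7 mice allow, and 0.0140 over the 18 members that fell, before any adjustment. These 18 were chosen by the same contrast in the same mice, so these small p are no further evidence. Without SZ-A replicates 2 and 5, the same 18 members fell together with Mmp11, and the same 3 rose together with Mmp28, against 17.8% lower and 15.2% higher of all genes in that fit. With the NC mice added to the fit, 12 were lower and 1 higher, against 9.28% and 4.93% of all genes, and the calls of Adam9, Adam10, Adamts2, Adamts7, Adamts12, Timp2, Timp4 and Mmp9 were lost, with adjusted p from 0.0589 to 0.173. With the epididymis covariate 12 were also lower, against 11.6% of all genes, and the calls of Adam8, Adam9, Adam11, Adamts7, Adamts14, Mmp14 and Mmp19 were lost, with adjusted p from 0.0528 to 0.118. The replicate block removed the calls of Adam9 (adjusted p = 0.0743) and Adam10 (adjusted p = 0.0714). The 2 comparisons share the HFD mice, so they are not independent of each other.

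Compared with NC, a few members were higher in SZ-A mice. Of 40 members tested, 6 were called higher (Mmp12, Adam8, Mmp19, Adam19, Timp1 and Mmp2), against 4.15% of all genes, and 0 were called lower, against 0.455% of all genes. At an unadjusted p under 0.05, limma counted 20 higher and 0 lower. The share of all genes at that limit is not given here, so the 20 cannot be set against it. By adjusted p, voom on recovered reads called 6 higher and 0 lower, against 3.49% and 0.449% of all genes. With the log2 limit of 1.5, 5 members were higher, against 1.79% of all genes, and the groups did not overlap for 6 members (Mmp12, Mmp13, Mmp19, Adam8, Adam19 and Adamts14), against 3.57% of all genes. Without the library labelled NC 6, 7 members were higher, Adamts5 being added, against 4.63% of all genes, and 1, Mmp9, was lower, against 0.87%. Leaving out NC replicate 3 in its place raised the count of higher members to 11, against 4.85% of all genes. The adjusted p of Mmp2 was 0.0494 and exceeded 0.05 in 10 of the 13 fits with 1 mouse left out, at a pseudocount of 0.1 FPKM (0.0778), with median-ratio scaling (0.0573), with voom (0.0887), with the epididymis covariate (0.124) and with the replicate block (0.151). The block also removed the call of Adam19 (adjusted p = 0.0681).

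**Figure D1:**
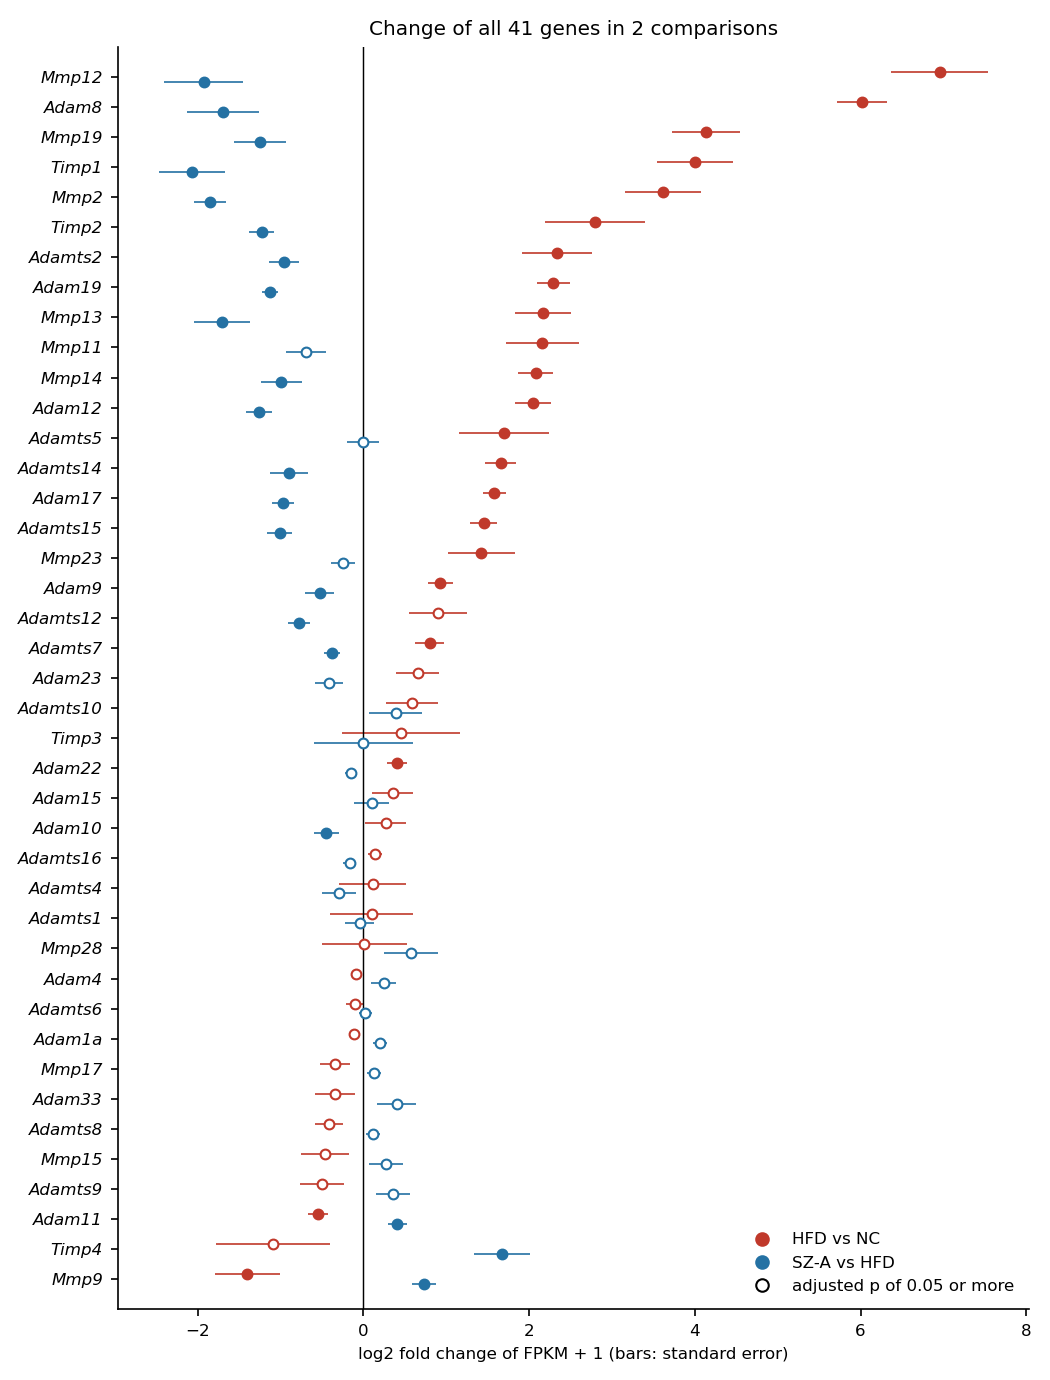
The log2 fold change of FPKM + 1 with its standard error is drawn on the horizontal axis for each of the 41 genes, HFD against NC in red and SZ-A against HFD in blue, with all libraries included. Filled points have an adjusted p under 0.05 in limma, and genes are ordered by HFD against NC, from Mmp12 (6.95) at the top to Mmp9 (-1.40) at the bottom.

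Among the matrix metallopeptidases, Mmp12, the elastase of macrophages, had the largest log2 fold change of all members in HFD against NC. Its level was lowest 0.199, median 2.15 and highest 9.38 FPKM in NC, 162, 252 and 1299 FPKM in HFD, and 47.8, 77.3 and 223 FPKM in SZ-A mice. Every HFD and every SZ-A mouse lay above every NC mouse, while HFD and SZ-A overlapped. The log2 fold change of HFD against NC was 6.95 ± 0.58 (SE, adjusted p = 9.37e-07 in limma), and 6.69 without the library labelled NC 6. SZ-A against HFD gave -1.93 ± 0.48 (adjusted p = 0.0107), and SZ-A against NC gave 5.02 ± 0.51 (adjusted p = 0.00021). In the HFD mice Mmp12 made up 42.6% to 74.2% of the summed Mmp FPKM, against 26.0% to 56.2% of it in SZ-A mice and 0.452% to 8.55% of it in NC mice. The sum itself was 375 to 1750 FPKM in HFD, 174 to 423 FPKM in SZ-A and 24.7 to 110 FPKM in NC mice.

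Mmp13, a collagenase that cuts fibrillar collagen, was low throughout. In NC mice it ranged from 0.0205 to 0.116 FPKM with a median of 0.0528, from 1 to 5 reads per library. It reached 1.09, 3.19 and 13.2 FPKM (lowest, median and highest) in HFD and 0.17, 0.305 and 1.42 FPKM in SZ-A mice. The NC mice lay below all others, and 1 SZ-A mouse, replicate 5, lay above the lowest HFD mouse. The log2 fold change, which understates that of low genes, was 2.16 ± 0.34 in HFD against NC (adjusted p = 0.000225, and 2.16 without the library labelled NC 6) and -1.71 ± 0.33 in SZ-A against HFD (adjusted p = 0.003). SZ-A against NC was not called (0.46 ± 0.15, adjusted p = 0.101), although the groups did not overlap. With a pseudocount of 0.1 FPKM, or with voom on the recovered reads, this last comparison was called.

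The stretches around the start sites of Mmp12 and Mmp13 are shown because both genes lie on chromosome 9, rose in HFD and fell in SZ-A, beside those of Adam8 and Timp1, which had the largest log2 fold changes of the Adam and Timp genes in HFD against NC. Promoter windows from RefSeq on GRCm38.p6, of 300 bases each, were at hand for 24 of the 41 members. Printed are the 120 bases before and the 20 bases from the start site, for Mmp12 the second of its 2 windows (chr9:7347254-7347393, plus strand), for Mmp13 chr9:7272394-7272533 (plus strand), for Adam8 chr7:139992543-139992682 (minus strand) and for Timp1 chrX:20870046-20870185 (plus strand). Capitals mark TGANTCA, the letters of an AP-1 site, and TATAAA, the letters of a TATA box, searched on both strands.
Mmp12: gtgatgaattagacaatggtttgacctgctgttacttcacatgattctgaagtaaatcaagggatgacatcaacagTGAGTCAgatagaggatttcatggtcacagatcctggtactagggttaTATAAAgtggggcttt
Mmp13: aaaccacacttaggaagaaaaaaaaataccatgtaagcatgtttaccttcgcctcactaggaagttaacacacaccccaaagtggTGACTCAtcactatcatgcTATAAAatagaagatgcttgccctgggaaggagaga
Adam8: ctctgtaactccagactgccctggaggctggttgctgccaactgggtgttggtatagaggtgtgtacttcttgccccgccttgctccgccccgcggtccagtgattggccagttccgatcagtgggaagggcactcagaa
Timp1: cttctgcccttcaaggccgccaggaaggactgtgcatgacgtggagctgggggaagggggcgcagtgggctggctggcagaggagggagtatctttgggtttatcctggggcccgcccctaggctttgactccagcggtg
The AP-1 letters began at base -44 of the Mmp12 window and at base -35 of the Mmp13 window, counted from the start site, and the TATA letters at base 5 and base -16. Neither occurred in the windows of Adam8 and Timp1, nor in the first window of Mmp12, which is not printed. That first window (chr9:7344277-7344416 for the same stretch) covers the annotated gene start at 7344381. TGANTCA was found in 3 of the 28 member windows (Adam19, Mmp12 and Mmp13) and in 7.81% of all 32851 windows, and TATAAA in 3 of 28 (Adamts1, Mmp12 and Mmp13) and in 13.6% of all windows. The purine-rich letters GAGGAA, part of a PU.1 site, were found in 4 of 28 member windows (Adam10, Adam19, Adam1a and Mmp12, there in its first window) and in 28.3% of all windows. These matches are a description of the letters.

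Mmp2, gelatinase A, which cuts denatured collagen and basement membrane, was higher in HFD than in either other group. Its lowest, median and highest values were 0.835, 11.0 and 23.3 FPKM in NC, 92.9, 120 and 174 FPKM in HFD, and 21.9, 32.2 and 56.0 FPKM in SZ-A mice. HFD overlapped neither of the other groups, and 1 NC mouse, replicate 3, lay within the SZ-A range. The log2 fold change was 3.61 ± 0.46 in HFD against NC (adjusted p = 4.27e-05, 3.13 without the library labelled NC 6) and -1.85 ± 0.19 in SZ-A against HFD (adjusted p = 0.000109). Mmp14, the membrane-bound enzyme that activates pro-Mmp2 together with Timp2, was at 4.77, 8.67 and 15.8 FPKM in NC, 32.9, 45.3 and 47.7 FPKM in HFD, and 13.0 to 56.3 FPKM (mean 23.2 ± 15.0, SD, n = 7) in SZ-A mice. Replicate 5 was the only SZ-A mouse that reached the HFD range. Mmp14 rose by a log2 fold change of 2.08 ± 0.21 in HFD (adjusted p = 5.46e-06, 2.17 without the library labelled NC 6) and fell in SZ-A (-0.99 ± 0.25, adjusted p = 0.0108, and -1.22 without SZ-A replicates 2 and 5). The gelatinase and its inhibitor did not keep a fixed ratio, the FPKM of Mmp2 over that of Timp2 being 0.116 to 0.170 in NC mice, 0.230 to 0.363 in HFD mice and, in SZ-A mice, 0.117 to 0.220.

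Mmp19, a secreted enzyme that cuts basement membrane proteins, had 0.291, 3.94 and 7.52 FPKM in NC, 42.2, 63.1 and 163 FPKM in HFD and 18.4, 26.9 and 65.6 FPKM in SZ-A mice. Only HFD and SZ-A overlapped. In limma, the log2 fold change was 4.13 ± 0.41 in HFD against NC (adjusted p = 4.54e-06, 3.80 without the library labelled NC 6), -1.25 ± 0.32 in SZ-A against HFD (adjusted p = 0.0121) and 2.89 ± 0.41 in SZ-A against NC (adjusted p = 0.00139). Of its exon bases, 28.3% also lie in exons of opposite-strand genes, and strand was not stated for the counting, so part of its reads cannot be assigned with certainty. Mmp11, stromelysin-3, rose in HFD (2.16 ± 0.44, adjusted p = 0.00149, 1.80 without the library labelled NC 6). In SZ-A against HFD it stood at -0.70 ± 0.24 with an adjusted p of 0.0502, from 18.9, 32.1 and 44.9 FPKM in HFD to 8.43, 17.9 and 28.6 FPKM in SZ-A mice.

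Mmp9, gelatinase B, moved opposite to the Mmp genes named so far. Its lowest, median and highest values were 0.252, 4.99 and 8.95 FPKM in NC, 0.516, 0.829 and 1.12 FPKM in HFD, and 1.51, 1.63 and 3.44 FPKM in SZ-A mice. All SZ-A mice lay above all HFD mice, and the library labelled NC 6 was the only NC mouse below the SZ-A and the HFD range. The estimate on the log2 scale was -1.40 ± 0.39 in HFD against NC (adjusted p = 0.0114), or -1.78 without that library, and 0.73 ± 0.15 in SZ-A against HFD (adjusted p = 0.00354). SZ-A against NC was not called (-0.67 ± 0.41, adjusted p = 0.394), and without that library it was (-1.05, adjusted p = 0.0441). Thus the gelatinases Mmp2 and Mmp9 moved in opposite directions in HFD against NC and in SZ-A against HFD.

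**Figure D2:**
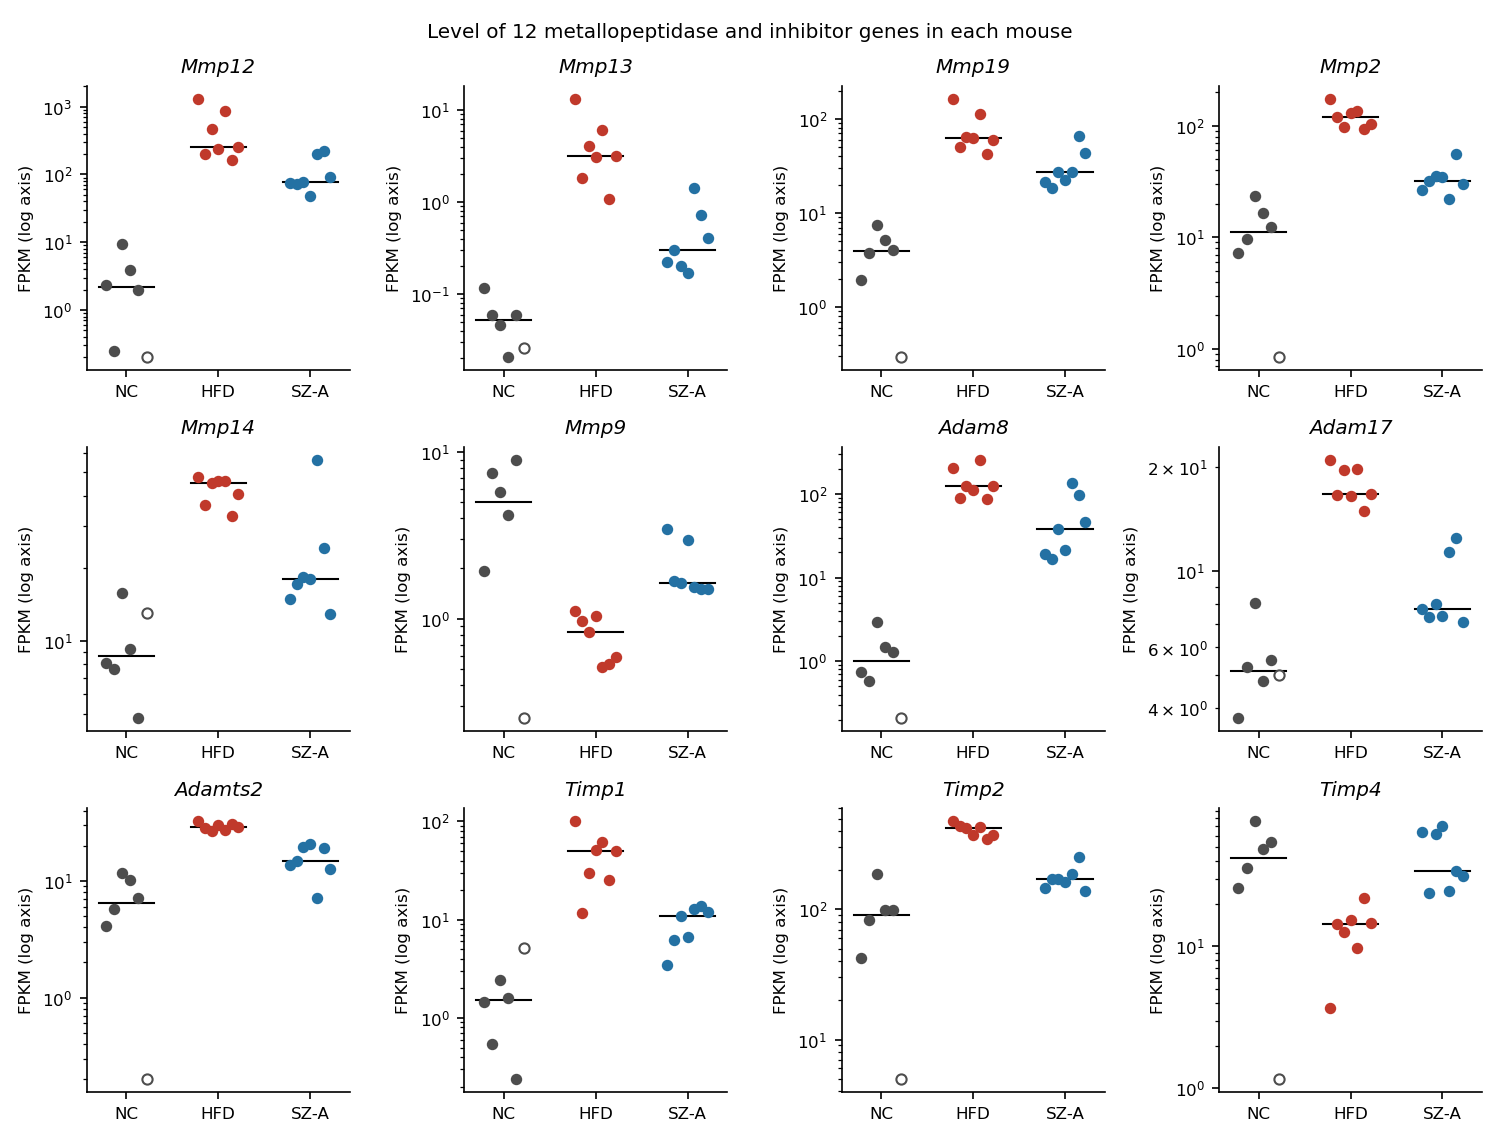
Each panel plots FPKM on a log axis for the NC, HFD and SZ-A mice, a point per mouse and a line at the group median. Open points are the library labelled NC 6. Mmp9 and Timp4 are lower in HFD than in SZ-A mice without overlap, while the other panels have the HFD median on top.

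Among the ADAM peptidases, Adam8, a leukocyte enzyme that sheds adhesion proteins, had the largest log2 fold change in HFD against NC. It was at 0.207, 1.01 and 2.93 FPKM (lowest, median and highest) in NC, 86.8, 123 and 254 FPKM in HFD, and 16.6, 38.2 and 134 FPKM in SZ-A mice. NC overlapped neither group, and SZ-A replicates 5 and 6 lay within the HFD range. The log2 fold change was 6.02 ± 0.30 in HFD against NC (adjusted p = 1.87e-08, 5.86 without the library labelled NC 6), -1.69 ± 0.44 in SZ-A against HFD (adjusted p = 0.0131) and 4.32 ± 0.47 in SZ-A against NC (adjusted p = 0.000267).

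Adam17, which releases TNF and several EGF-family ligands, rose in HFD and fell in SZ-A. Its values were 3.74, 5.13 and 8.06 FPKM in NC, 14.9, 16.7 and 21.0 FPKM in HFD, and 7.11, 7.75 and 12.4 FPKM in SZ-A mice. HFD was apart from both other groups. In limma, the log2 fold change was 1.58 ± 0.14 in HFD against NC (adjusted p = 1.56e-06, 1.57 without the library labelled NC 6) and -0.97 ± 0.13 in SZ-A against HFD (adjusted p = 0.000428). Adam10, the main sheddase of Notch receptors and the closest relative of Adam17, had overlapping levels in all groups. It was at 19.4, 22.7 and 64.9 FPKM in NC, 26.8, 30.7 and 44.9 FPKM in HFD, and 17.9, 22.4 and 37.4 FPKM in SZ-A mice. HFD against NC was not called (0.27 ± 0.24, adjusted p = 0.402), and without the library labelled NC 6, which held the 64.9 FPKM, it was (0.52, adjusted p = 0.0078). SZ-A against HFD was called (-0.45 ± 0.15, adjusted p = 0.0435), and 11 of the 14 fits with 1 mouse left out no longer called it.

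Adam12 and Adam19, which cut growth factors and matrix at the cell surface and are known from muscle and other mesenchymal cells, each had HFD mice wholly apart from the others. Adam12 was at 0.026, 0.924 and 1.44 FPKM in NC, 4.88, 5.49 and 8.51 FPKM in HFD, and 1.22, 1.98 and 3.65 FPKM in SZ-A mice. It rose by 2.05 ± 0.21 in HFD against NC (adjusted p = 6.65e-06, 1.89 without the library labelled NC 6) and differed by -1.26 ± 0.16 in SZ-A against HFD (adjusted p = 0.000325). Adam19 was at 0.106, 1.27 and 1.72 FPKM in NC, 8.08, 8.47 and 9.37 FPKM in HFD, and 2.88, 3.35 and 4.77 FPKM in SZ-A mice. None of the 3 groups overlapped. Its log2 fold change was 2.29 ± 0.20 in HFD against NC (adjusted p = 1.15e-06, 2.12 without the library labelled NC 6), -1.13 ± 0.09 in SZ-A against HFD (adjusted p = 5.27e-05) and 1.16 ± 0.21 in SZ-A against NC (adjusted p = 0.00577). Adam9, a widely expressed sheddase, rose in HFD (0.93 ± 0.15, adjusted p = 0.000275, 0.84 without the library labelled NC 6) and fell in SZ-A (-0.53 ± 0.18, adjusted p = 0.0422), which 9 of the 14 fits with 1 mouse left out no longer called. Adam11, which lacks a working catalytic site, went the other way at a low level of 0.103 to 0.414 FPKM in HFD, 0.363 to 1.17 FPKM in NC and 0.241 to 1.18 FPKM in SZ-A mice. It fell in HFD against NC (-0.55 ± 0.12, adjusted p = 0.00221, -0.63 without the library labelled NC 6) and rose in SZ-A against HFD (0.41 ± 0.11, adjusted p = 0.0199).

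Among the ADAMTS genes, 5 rose in HFD and 5 fell in SZ-A. Adamts2 and Adamts14, which trim the amino-terminal ends of fibrillar procollagens, did both. Adamts2 was at 0.198, 6.42 and 11.8 FPKM in NC, 27.1, 29.2 and 32.7 FPKM in HFD, and 7.11, 15.0 and 20.7 FPKM in SZ-A mice, with HFD apart from the others. Its log2 fold change was 2.33 ± 0.42 in HFD against NC (adjusted p = 0.000719, 1.87 without the library labelled NC 6) and -0.95 ± 0.18 in SZ-A against HFD (adjusted p = 0.00256). Adamts14, at a median of 0.539 FPKM in NC, 3.67 FPKM in HFD and 1.19 FPKM in SZ-A mice, gave 1.66 ± 0.19 in HFD against NC (adjusted p = 1.61e-05, 1.57 without the library labelled NC 6) and -0.90 ± 0.23 in SZ-A against HFD (adjusted p = 0.0129).

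Adamts15, which cuts large proteoglycans such as versican, had medians of 1.27 FPKM in NC, 5.14 FPKM in HFD and 2.06 FPKM in SZ-A mice, and its HFD range of 4.03 to 8.23 FPKM met neither of the others. The estimate on the log2 scale was 1.45 ± 0.17 in HFD against NC (adjusted p = 1.5e-05, 1.40 without the library labelled NC 6) and -1.01 ± 0.15 in SZ-A against HFD (adjusted p = 0.000714). Adamts7 and Adamts12, which cut cartilage oligomeric matrix protein, both fell in SZ-A against HFD. Adamts7 rose in HFD (0.80 ± 0.18, adjusted p = 0.00274, 0.68 without the library labelled NC 6) and fell in SZ-A (-0.38 ± 0.10, adjusted p = 0.0135). Adamts12 was not called in HFD against NC (0.90 ± 0.35, adjusted p = 0.0546) but was called higher without that library (0.54, adjusted p = 0.0405) and lower with the epididymis covariate (-0.67, adjusted p = 0.0159), so its direction there depends on the fit. It fell in SZ-A against HFD without overlap (-0.78 ± 0.14, adjusted p = 0.00185). Adamts5, an aggrecanase, rose in HFD against NC (1.70 ± 0.54, adjusted p = 0.0226, 1.14 without the library labelled NC 6), but stood at 34.7 FPKM (median) in HFD and 30.8 FPKM in SZ-A mice (-0.01 ± 0.19, adjusted p = 0.985). With the epididymis covariate, Adamts5 was not called higher in HFD against NC. It was named after its values were seen. The 18 members outside the naming rule, Adamts5 included, lay between -0.50 and 1.70 in HFD against NC, where 3 of 18 rose (Adam22, Adamts5 and Mmp23), and between -0.42 and 0.58 in SZ-A against HFD, where 0 of 18 were called at an adjusted p under 0.05 in limma or in voom and 1 higher and 2 lower had an unadjusted p under 0.05.

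Of the tissue inhibitors, Timp1 and Timp2 rose in HFD and fell in SZ-A, Timp4 rose in SZ-A, and Timp3 was not called in the unweighted fits without a covariate. Timp1, an inducible secreted inhibitor, was at 0.237, 1.53 and 5.10 FPKM (lowest, median and highest) in NC, 11.6, 50.1 and 101 FPKM in HFD, and 3.44, 11.0 and 13.9 FPKM in SZ-A mice. HFD lay above NC without overlap, and the lowest HFD mouse lay within the SZ-A range. HFD against NC had an adjusted p of 1.73e-05 with all libraries in limma, and without the library labelled NC 6 the log2 fold change was 4.26 ± 0.44 (adjusted p = 5.65e-06). It was -2.07 ± 0.40 in SZ-A against HFD (adjusted p = 0.00285) and 1.94 ± 0.37 in SZ-A against NC (adjusted p = 0.0092). Timp2, which both inhibits Mmp2 and helps to activate it, was the most abundant inhibitor in HFD, at 345, 424 and 479 FPKM, against 4.93, 91.1 and 186 FPKM in NC and 138, 171 and 255 FPKM in SZ-A mice. HFD overlapped neither group. It gave 2.79 ± 0.60 in HFD against NC (adjusted p = 0.00241, 2.13 without the library labelled NC 6) and -1.23 ± 0.15 in SZ-A against HFD (adjusted p = 0.000304).

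Timp4, the inhibitor best known from adipose and heart tissue, went the other way. It was at 1.15, 41.9 and 76.4 FPKM in NC, 3.69, 14.2 and 21.9 FPKM in HFD, and 23.7, 33.8 and 70.2 FPKM in SZ-A mice. Each SZ-A mouse lay above each HFD mouse, and the 1.15 FPKM came from the library labelled NC 6, the remaining NC mice lying at 25.6 to 76.4 FPKM, above all HFD mice. SZ-A against HFD gave 1.67 ± 0.34 (adjusted p = 0.00349). HFD against NC gave -1.09 ± 0.69 (adjusted p = 0.222) with all NC libraries and -1.83 ± 0.35 (adjusted p = 0.000956) without that library. The summed adipocyte markers moved with it, at 6308 to 15587 FPKM in the remaining NC mice, 1834 to 8208 FPKM in HFD and 5321 to 16454 FPKM in SZ-A mice, and their part in the result was not tested. Of the 12 adipocyte markers, 0 were called in SZ-A against HFD by limma with all libraries (7 at an unadjusted p under 0.05, and 1 by voom), and 7 rose without SZ-A replicates 2 and 5. Timp3, a matrix-bound inhibitor that also blocks Adam17, was not called in those fits in any of the 3 comparisons. Its values were 0.396, 26.3 and 72.0 FPKM in NC, 11.7 to 40.2 FPKM (mean 25.1 ± 10.6, SD, n = 7) in HFD, and 0.943, 36.8 and 51.4 FPKM in SZ-A mice, where the 0.943 FPKM was replicate 5. HFD against NC was 0.45 ± 0.71 (adjusted p = 0.64), -0.28 without the library labelled NC 6, and a called fall with the epididymis covariate (-2.62, adjusted p = 0.00122). SZ-A against HFD was -0.00 ± 0.60 (adjusted p = 0.997), 0.60 without SZ-A replicate 5, and a called rise with array weights (0.78, adjusted p = 0.0354). No direction can be given for Timp3. In Timp3, 21.3% of the exon bases also lie in exons of Syn3 on the opposite strand.

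The make-up of the summed inhibitor transcripts is given for each group as a range. Timp2 supplied 80.0% to 87.6% of the summed Timp FPKM in HFD, 55.7% to 83.0% in SZ-A and 53.4% to 58.3% in NC mice other than the library labelled NC 6. Timp4 supplied 0.620% to 5.08% in HFD mice and, in SZ-A mice, 9.96% to 24.6%, without overlap, and 22.7% to 32.2% in those NC mice. Timp1 supplied 2.32% to 17.0% in HFD, 1.33% to 5.83% in SZ-A and 0.129% to 1.84% in those NC mice. The library labelled NC replicate 6 had 44.0% Timp1, at a summed Timp level of 11.6 FPKM. The ratio of summed Mmp to summed Timp FPKM was 0.869 to 2.94 in HFD, 0.635 to 1.58 in SZ-A and 0.325 to 0.448 in the NC mice without that library, in which it was 2.14. With Mmp12 left out of the sum, the ratio was 0.492 to 0.757 in HFD mice and, in SZ-A mice, 0.452 to 0.694. These shares are of transcript levels per length and were not tested.

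**Figure D3:**
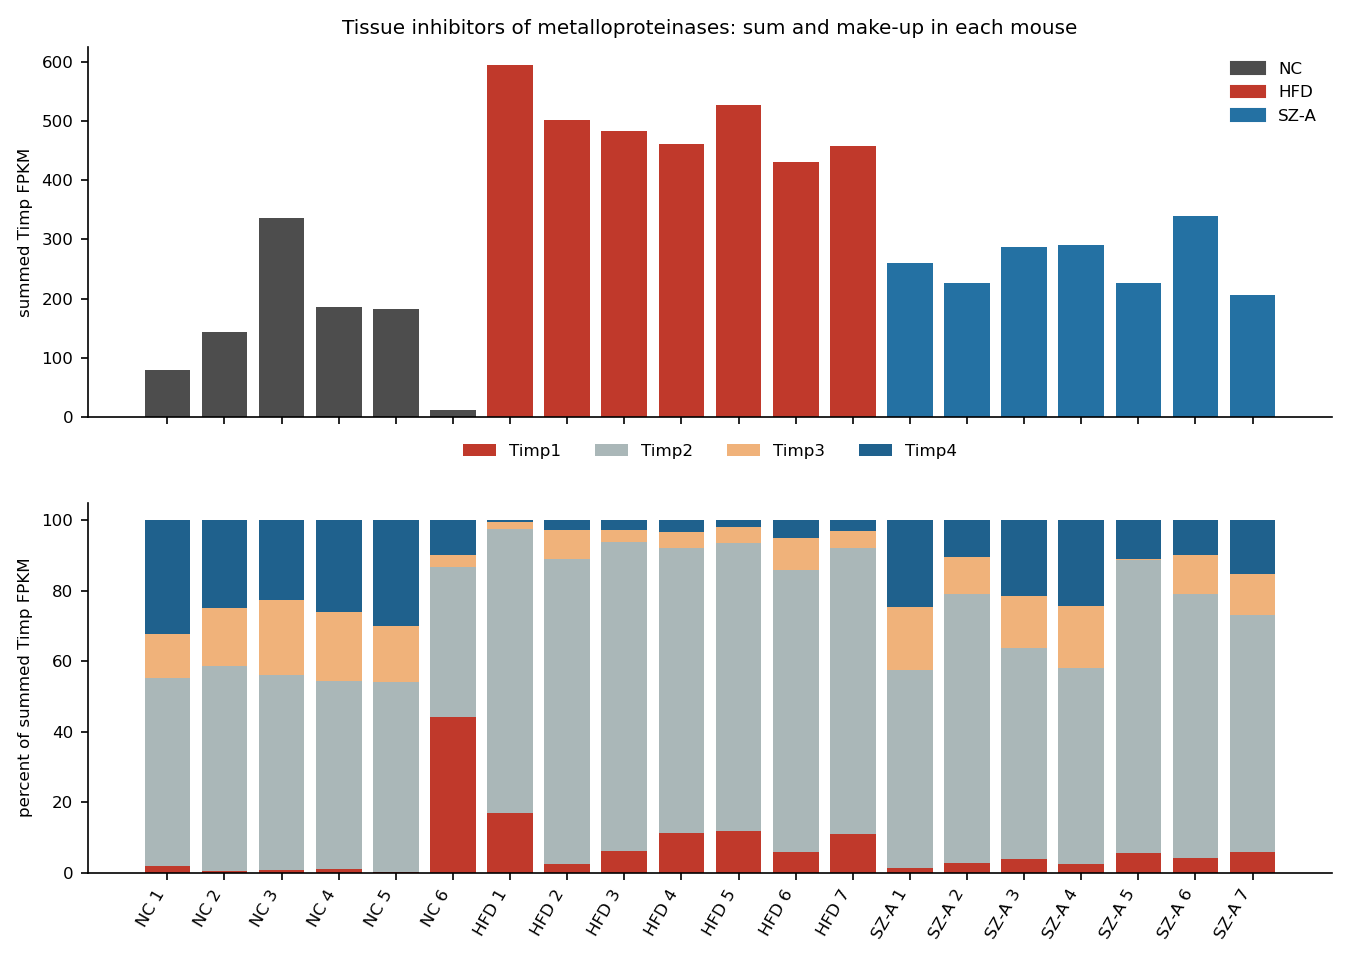
The upper bars give the summed FPKM of the 4 Timp genes in each mouse, coloured by group, and the lower bars split that sum into percent from each gene. The HFD bars are the tallest (432 to 595 FPKM) and have the smallest Timp4 part, and the library labelled NC 6 stands apart in both.

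The size of the falls in SZ-A was next set beside that of cell type markers. The mean log2(FPKM + 1) of the 20 macrophage markers fell by 1.16 in SZ-A against HFD, and that of the 16 fibroblast and preadipocyte markers fell by 0.99, with 15 of 20 and 13 of 16 genes called lower. For each of the 18 members that fell, the level relative to the macrophage list (member minus list, per mouse) was compared between the groups by an exact two-sided permutation test, adjusted over these 18 comparisons. The 18 had been chosen by the same contrast, so their falls as such are no further evidence. A single member, Mmp2, fell further than the macrophage list (-0.69 ± 0.24, adjusted p = 0.0105), and 0 fell less at that threshold, while 5 of 18 had an unadjusted p under 0.05. Set against the fibroblast list, a comparison added after the data were seen, Mmp2 also fell further (-0.87 ± 0.13, adjusted p = 0.00524), and Adam10 (0.54 ± 0.11, adjusted p = 0.00524) and Adamts7 (0.60 ± 0.13, adjusted p = 0.0105) fell less. Adamts7 averaged 1.79 FPKM in HFD and 1.14 FPKM in SZ-A mice, a level at which log2(FPKM + 1) understates changes. For Timp1 the difference from the macrophage list was -0.91 ± 0.36 (adjusted p = 0.136) and for Mmp12 -0.77 ± 0.37 (adjusted p = 0.172).

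SZ-A replicate 5 decided part of this result. In that mouse the summed macrophage markers were 5095 FPKM, within the HFD range, against a median of 1815 FPKM over the SZ-A mice. Without it, Mmp2 still fell further than the macrophage list (-0.46 ± 0.09, adjusted p = 0.0042), and 7 members fell less, namely Adam9, Adam10, Adam17, Adamts2, Adamts7, Adamts12 and Adamts15. Of these, Adamts7 differed most (0.95 ± 0.17, adjusted p = 0.00262) and Adam17 least (0.27 ± 0.06, adjusted p = 0.00262). The log2(FPKM + 1) scale understates the falls of low members such as Adamts7, so this order holds on that scale only. Against the markers of lipid-associated macrophages, which fell by 1.19, 0 of 18 members differed by adjusted p and 8 had an unadjusted p under 0.05, and the relative difference of Mmp2 was -0.66 ± 0.29 (adjusted p = 0.103).

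**Figure D4:**
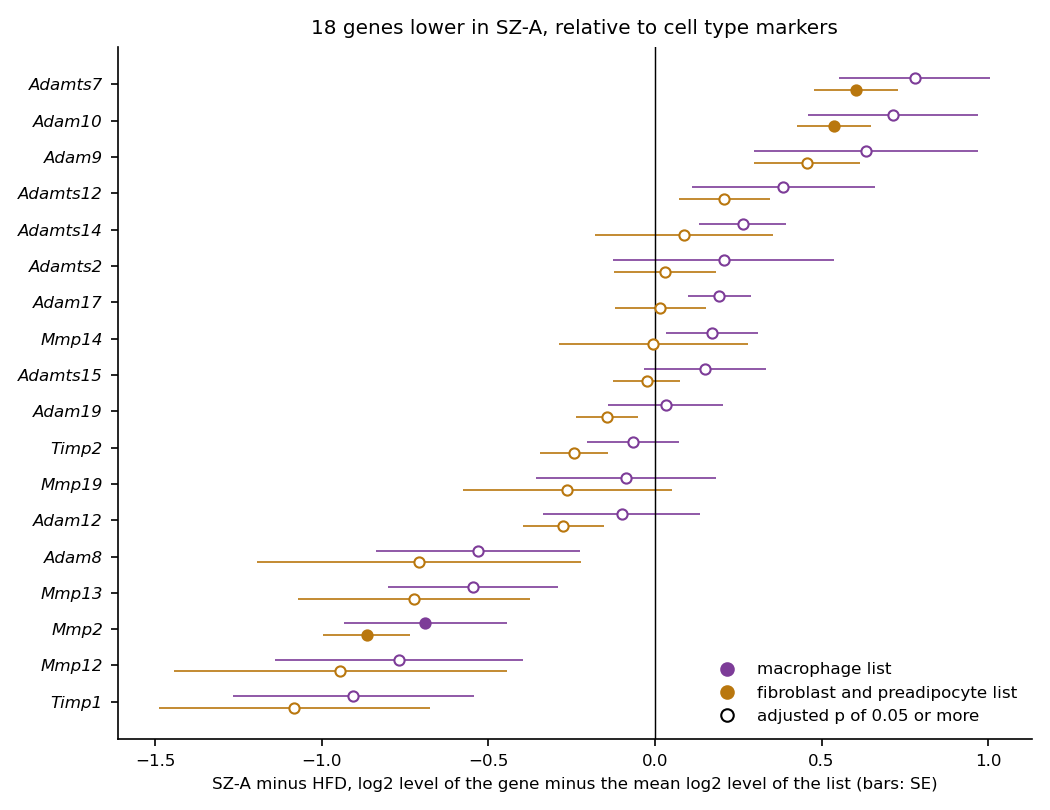
For each of the 18 genes that fell, the difference SZ-A minus HFD of its log2 level relative to the mean log2 level of the macrophage list (purple) or of the fibroblast and preadipocyte list (brown) is drawn with its standard error. Filled points passed the exact permutation test after adjustment over the 18 genes, which held for Mmp2 with both lists and for Adam10 and Adamts7 with the fibroblast list.

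Markers of several cell types moved beside the members. In HFD against NC, 18 of 20 macrophage and 14 of 16 lipid-associated macrophage markers rose. So did 12 of 16 fibroblast and 4 of 5 mast cell markers, while 1 fibroblast marker fell. In SZ-A against HFD, 11 lipid-associated macrophage and 4 mast cell markers fell. Of all genes, 21.0% rose and 20.1% fell in HFD against NC, and 9.47% rose and 13.3% fell in SZ-A against HFD. T and NK cell markers gave 2 rises and 3 falls of 11 in these comparisons, neutrophil markers 2 and 0 of 2, and B cell markers 0 and 1 of 3. Smooth muscle markers went the other way, with 6 of 8 falling in HFD and 3 rising in SZ-A. For endothelial markers, 0 of 10 were called in HFD against NC by limma or voom, with 1 lower at an unadjusted p under 0.05, and 3 rose in SZ-A. Mesothelial markers had 1 fall of 2 in HFD, epididymis markers 2 falls of 3, and epithelial markers 4 falls of 4. Adipocyte markers had 1 rise and 1 fall of 12 there. Without the library labelled NC 6, 17 macrophage, 15 lipid-associated macrophage, 13 fibroblast and 5 mast cell markers rose in HFD. So did 1 neutrophil and 1 B cell marker. In that fit 8 smooth muscle, 7 adipocyte, 3 epididymis and 2 endothelial markers fell. Of all genes, 22.6% rose and 22.6% fell in it. In SZ-A against HFD, 1 of 3 epididymis markers rose (Adgrg2, 1.92, adjusted p = 0.0325), as did 1 of 4 epithelial markers (Spint2, 2.18, adjusted p = 0.0111), and 0 of 2 mesothelial markers were called by limma or voom, with 1 lower at an unadjusted p under 0.05. The part of these cells in the members' changes was not tested.

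Other genes of the pathway were read from lists. Among activators, inhibitors and partners of these enzymes, 32 of 40 listed genes had values. Of these, 9 rose and 4 fell in HFD against NC, beside 21.0% higher and 20.1% lower of all genes. Without the library labelled NC 6, 12 rose and 6 fell, beside 22.6% and 22.6%. In SZ-A against HFD, 0 rose and 8 fell, beside 9.47% and 13.3% of all genes. Without SZ-A replicates 2 and 5, 2 rose and 9 fell, beside 15.2% and 17.8%. These shares of all genes, each for its own fit, apply to the lists that follow too. Plau, the urokinase that starts the plasmin cascade, went from 129 ± 25.1 FPKM (SD, n = 7) in HFD to 57.3 ± 17.5 FPKM in SZ-A mice (log2 fold change -1.18 ± 0.18, adjusted p = 0.000897 in limma). Lrp1, a receptor that clears enzyme and inhibitor complexes, went from 128 ± 19.1 to 61.7 ± 20.1 FPKM (-1.08 ± 0.18, adjusted p = 0.00116). Frmd8, which stabilises Adam17 with its iRhom partners at the cell surface, went from 15.8 ± 2.40 to 9.03 ± 2.23 FPKM (-0.76 ± 0.14, adjusted p = 0.00203).

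Of the proteins that ADAM enzymes shed, 30 of 36 listed genes had values, of which 15 rose and 5 fell in HFD against NC (14 and 6 without the library labelled NC 6), and 2 rose and 9 fell in SZ-A against HFD. The smallest adjusted p in the latter belonged to Axl (-1.01 ± 0.12, adjusted p = 0.000304), Csf1r (-1.37 ± 0.19, adjusted p = 0.00043) and Tnfrsf1b (-1.27 ± 0.20, adjusted p = 0.000948), the last a TNF receptor cut by Adam17. Csf1r is also in the macrophage list. Of the matrix proteins, 24 of 28 had values, of which 18 rose and 0 fell in HFD against NC, with the same counts without that library, and 17 fell and 0 rose in SZ-A against HFD. Col6a3 (-1.37 ± 0.17, adjusted p = 0.000304), Lum (-1.94 ± 0.25, adjusted p = 0.000369) and Fbn1 (-1.56 ± 0.21, adjusted p = 0.000372) had the smallest adjusted p, and Lum and Fbn1 are in the fibroblast list too, so the lists are not independent. Of 4 other metallopeptidases of the metzincin group and relatives with values, Bmp1, which removes the carboxy-terminal ends of procollagens, rose in HFD (1.71 ± 0.23, adjusted p = 6.89e-05) and fell in SZ-A (-0.70 ± 0.13, adjusted p = 0.00253). Pappa, which cuts IGF-binding proteins, fell in HFD (-0.76 ± 0.29, adjusted p = 0.0493). Ece1, which processes endothelin, had 0.61 ± 0.34 in HFD against NC (adjusted p = 0.16) and 0.25 ± 0.21 in SZ-A against HFD (adjusted p = 0.386).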

How the data were processed

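Poly(A) RNA of eWAT from 20 mice was sequenced with paired ends. Per their methods, the authors aligned reads to GRCm38 with HISAT2. For the counting, the submitters' processing notes name featureCounts (1.5.0-p3), and the deposited FPKM values are these counts scaled to gene length and library size. The annotation release, strand setting and gene filter are not given in the sources used here. Multiplied by GENCODE exon lengths, 95.9% to 96.3% of the values of up to 1000 reads per mouse were whole (tolerance 0.01). From the FPKM, log2(FPKM + 1) was fitted with limma 3.58.1 in R 4.3.3 (trended eBayes, 2 groups per fit, genes averaging 0.1 FPKM or more, Benjamini-Hochberg over all genes), a test that was also run on simulated data. Single values were compared by exact two-sided permutation in Python 3.11.15. Named were members called in SZ-A against HFD, the 10 largest calls in HFD against NC, calls in SZ-A against NC that HFD against NC lacked, all Timp genes, and Mmp2, Mmp9, Mmp14, Adam10 and Adam17. From each list of pathway genes, the 3 of smallest adjusted p in SZ-A against HFD were given values. Members and lists were chosen with earlier results of these data known. Groups came from the labels, which number the samples without stating separate animals, so p-values measure the spread between these samples. Alternatives covered pseudocount, filter, scaling, voom, array weights, a replicate block, an epididymis covariate and each mouse left out.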

Additional observations from a re-analysis of the deposited data

Results flagged for a closer look

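In 7 of the 69 member and group combinations examined, 1 mouse lay far from the rest of its group by Dixon's test. Chance alone marks about 1 in 20 such groups. In the library labelled NC 6, Adam10 was at 64.9 FPKM, with the next NC mouse at 27.8 FPKM, and Timp4 was at 1.15 FPKM, with the next at 25.6 FPKM. SZ-A replicate 5 held 3 of the values, namely Mmp14 at 56.3 FPKM (next 24.3), Adam9 at 15.8 FPKM (next 31.6) and Timp3 at 0.943 FPKM (next 23.4). Adam19 was at 4.77 FPKM in SZ-A replicate 6 (next 3.54), and Adamts15 was at 2.43 FPKM in NC replicate 3 (next 1.32).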

How the results depend on the processing

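Over the alternatives, 1755 of 1911 values of single members kept their direction and their side of the threshold, 59 gained a call and 59 lost one in the same direction, and 38 changed sign. Of the 38, 0 were called in the first fit, 3 gained a call and 35 had none on either side. The 3 were, with the epididymis covariate in HFD against NC, Adamts12 (-0.67) and Timp3 (-2.62), and, with array weights in SZ-A against HFD, Timp3 (0.78). The uncalled changes of sign were Timp3 in HFD against NC with array weights (-0.24) and without the 3 libraries (-0.28), Timp3 in SZ-A against HFD with median-ratio scaling (0.0044) and without the 3 libraries (0.72), and, in SZ-A against NC, Adam10 and Adamts12 with array weights (0.0704 and -0.087), with the epididymis covariate (0.15 and -0.29) and without the 3 libraries (0.015 and -0.15), and Timp3 and Timp4 with the covariate (-0.30 and -0.28). With 1 mouse left out, Timp3 ranged from -0.28 to 0.86 in HFD against NC, -0.19 to 0.60 in SZ-A against HFD and -0.28 to 1.06 in SZ-A against NC, where Adam10 ranged from -0.29 to 0.0701, Adamts12 from -0.24 to 0.33 and Timp4 from -0.16 to 0.88. Relative to the macrophage list, Adam19, Adamts14 and Adamts15 turned at a pseudocount of 0.1 FPKM (-0.095, -0.048 and -0.054) and Adam19, Adamts15 and Mmp14 against the fibroblast list (-0.14, -0.025 and -0.0048), and with 1 mouse left out Adam12 ranged from -0.17 to 0.11, Adam19 from -0.038 to 0.16, Mmp19 from -0.21 to 0.069 and Timp2 from -0.12 to 0.051. The count of members lower in HFD against NC (2) was 0 with a log2 limit of 1.5, 1 with a fold limit of 1.5 or a mean of at least 1 FPKM, 5 with array weights, 12 with the epididymis score as covariate (13 higher), 7 without the 3 libraries that stand apart (chosen after seeing the data), and 2 to 7 with 1 mouse left out. Of all genes, 25.2% were lower there with array weights, and 16.8% to 22.6% with 1 mouse left out. In SZ-A against HFD, 1 was higher and 5 lower with the log2 limit of 1.5, and 1 higher and 12 lower with all 3 groups fitted. With array weights 6 were higher and 21 lower, against 21.9% and 21.7% of all genes. In SZ-A against NC, 14 were higher with all 3 groups fitted, against 7.83% of all genes. Array weights gave 17 higher and 3 lower, against 11.6% and 6.29%. With 1 mouse left out 5 to 11 were higher, against 2.69% to 4.85%, and 0 to 1 lower, against 0.170% to 0.999%. Of all genes, 3349 were called in SZ-A against HFD (2089 with 3 groups fitted, 6403 with array weights) and 678 in SZ-A against NC (1527, 2639, and 167 with the replicate block). Mmp2 alone fell further than the macrophage list, against 0 with the lipid-associated list, 2 at a pseudocount of 0.1 FPKM and 1 to 2 with 1 mouse left out; 2 members fell less than the fibroblast list, and 0 to 7 less than the macrophage list with 1 mouse left out. With the replicate block, 18 members rose and 2 fell in HFD against NC, 3 and 16 in SZ-A against HFD, and 4 and 0 in SZ-A against NC. The shares of all genes were 16.5% and 13.6%, 7.00% and 10.8%, and 1.03% and 0.102%. Same-numbered mice deviated together in 1 of 6, 3 of 7 and 2 of 6 pairs (correlation over 0.1). Replicate 4 did so in each comparison (0.31, 0.39 and 0.59). Whether same-numbered mice share more than a number was not tested. The cause of these changes was not tested. Members under 10 reads in a mouse are limited by depth.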
